A study of Mus musculus with 16 samples.

Results

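Prostaglandin synthesis, breakdown and receptor genes were followed in mouse kidney, 24 h after unilateral ureteral obstruction (UUO, closure of the ureter of a single kidney) and without treatment. They were chosen by symbol, from knowledge of the pathway and with earlier results of these data known. The symbols were PLA2G4A, PTGS1, PTGS2, PTGES, PTGIS, PTGDS, HPGD, PTGER1, PTGER3 and PTGER4. Of these 10 symbols 9 had a row among the 18132 genes of the deposited table, and PTGER1 was not analysed here. Kidney RNA was hybridized to Illumina MouseRef-8 v2 BeadChips, on which the brightness of a probe follows the amount of its transcript, with 1 array per kidney. The 16 kidneys fell into 4 groups, named by genotype and treatment. WT control (n = 2) and WT UUO (n = 7) came from wild type C57/BL6 mice, and KO control (n = 2) and KO UUO (n = 5) came from IL-33 KO mice, which are deficient in the gene of the cytokine IL-33 and had been backcrossed to a C57BL/6J line. The controls are labelled as untreated and not as operated without ligation, so the operation and the obstruction cannot be told apart. The mice of the study were 8 weeks old unless stated otherwise. The UUO kidneys came from 2 sets of mice, with 3 WT and 2 KO kidneys in set 1 and 4 WT and 3 KO kidneys in set 2. The set of the controls is not given, so set and treatment cannot be told apart in a comparison with controls.

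Prostaglandins are short-lived lipids made from arachidonic acid. Cytosolic phospholipase A2 (PLA2G4A) frees the acid from membranes, the cyclooxygenases PTGS1 and PTGS2 turn it into prostaglandin H2, and terminal synthases make prostaglandin E2 (PTGES), prostacyclin (PTGIS) or prostaglandin D2 (PTGDS). The dehydrogenase HPGD starts their breakdown, and the EP receptors (PTGER1, PTGER3, PTGER4) read prostaglandin E2 at the cell surface. In the kidney these lipids are known for holding blood flow, renin release and the handling of salt and water, and the thick ascending limb and the collecting duct are known sites of EP3 (PTGER3). Obstruction of the ureter is a textbook setting of raised prostaglandin production.

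The lowest deposited intensity was 95.5 and not 0, and it was taken here as the level of a probe without signal. Values are given below as log2 intensity, on which the table ran upwards from 6.59 with a median of 7.05. IL33, the deleted gene, lay at 6.80 to 7.02 in the 7 KO kidneys and at 7.62 to 9.57 in the 9 WT kidneys, so all 16 arrays matched the genotype in their labels. WT UUO kidneys 3818 and 3820, both of set 1 and named here by the array number in their label, stood apart. The extent of response is the difference of a kidney from its controls, measured along the response of the other genotype, where 0 is the control mean and 1 the mean response. It was 0.57 in 3818 and 0.37 in 3820, against 0.76 to 0.95 in the other 5 WT UUO kidneys. The KO UUO kidneys had 1.11 to 1.25. WT and KO kidneys were measured along different responses, so the ranges of the genotypes do not share a scale. Kidney markers were present in all groups, and the summed intensity of 6 proximal tubule genes ran from 9706 to 36084.

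The promoters of the members on which the results below turn are shown from RefSeq, mouse build GRCm38.p6. HPGD passed the test after UUO in KO kidneys and PTGER3 in WT kidneys, and PTGDS had WT UUO sets that did not overlap, a difference that missed the adjusted threshold. Each runs 5′ to 3′ on the strand of the gene, from 250 bases before to 50 bases after the annotated start. The windows lie at chr8:56294302-56294601 (HPGD, plus strand), chr3:157566626-157566925 (PTGER3, plus strand) and chr2:25469700-25469999 (PTGDS, minus strand). Capitals mark the letters that match a searched motif on either strand.
HPGD: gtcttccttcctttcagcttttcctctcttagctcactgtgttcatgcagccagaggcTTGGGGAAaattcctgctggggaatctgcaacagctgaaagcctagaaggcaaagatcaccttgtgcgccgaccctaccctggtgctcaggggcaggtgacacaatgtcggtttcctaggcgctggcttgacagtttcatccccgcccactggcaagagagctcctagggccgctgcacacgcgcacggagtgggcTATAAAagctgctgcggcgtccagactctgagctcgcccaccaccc
PTGER3: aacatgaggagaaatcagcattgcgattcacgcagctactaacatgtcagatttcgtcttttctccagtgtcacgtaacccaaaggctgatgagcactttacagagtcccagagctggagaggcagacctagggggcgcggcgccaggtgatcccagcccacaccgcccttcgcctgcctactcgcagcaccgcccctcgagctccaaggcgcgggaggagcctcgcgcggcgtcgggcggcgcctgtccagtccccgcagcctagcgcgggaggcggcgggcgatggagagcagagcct
PTGDS: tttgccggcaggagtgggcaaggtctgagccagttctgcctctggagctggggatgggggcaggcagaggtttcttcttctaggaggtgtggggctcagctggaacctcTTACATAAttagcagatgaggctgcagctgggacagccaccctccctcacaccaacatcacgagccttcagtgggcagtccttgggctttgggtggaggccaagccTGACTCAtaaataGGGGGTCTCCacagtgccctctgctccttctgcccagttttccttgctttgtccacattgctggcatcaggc
The motifs searched were the CRE core TGACG, the full CRE TGACGTCA, the TATA box TATAAA, AP-1 TGANTCA, C/EBP TTNNGNAA and the NF-kB consensus. Counted from the annotated start, with bases before it as negative, HPGD held TATAAA at 5 to 10 and a C/EBP match at -192 to -185. PTGDS held an AP-1 match at -35 to -29, an NF-kB match at -22 to -13 and a C/EBP match, on the other strand, at -141 to -134, and no searched letters were found in the window of PTGER3. Such matches are common. Of 32851 promoter windows in the reference, 13.6% held TATAAA, 40.7% the C/EBP letters, 7.81% those of AP-1, 8.46% those of NF-kB, 20.8% the CRE core and 1.79% the full CRE. Among the members, 8 genes had 9 windows, of which 5 held the C/EBP letters, 2 TATAAA and 1 the CRE core, in PTGS2 at 14 to 18. PTGS2 and PLA2G4A are next to each other among the protein-coding genes of the reference.

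After UUO few of the prostaglandin genes changed. A gene was called when its limma p, adjusted over all 18132 genes, was under 0.05. In WT kidneys 1 of the 9 measured members was called, the receptor PTGER3, which fell. In KO kidneys 1 of 9 was called, the breakdown enzyme HPGD, which fell. Over all genes 15.2% were called in WT kidneys, 8.22% as lower and 6.97% as higher, and 21.8% in KO kidneys, 11.2% as lower and 10.6% as higher, so the members' counts were near or under the background. The median log2 fold change of the 9 members was -0.03 in WT and -0.01 in KO kidneys, and that of all genes was -0.0008 and -0.0006. The groups did not overlap for 2 members in WT kidneys (PTGES and PTGER3), beside 21.4% of all genes, and for 2 members in KO kidneys (PTGS1 and HPGD), beside 35.0% of all genes.

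**Figure D1:**
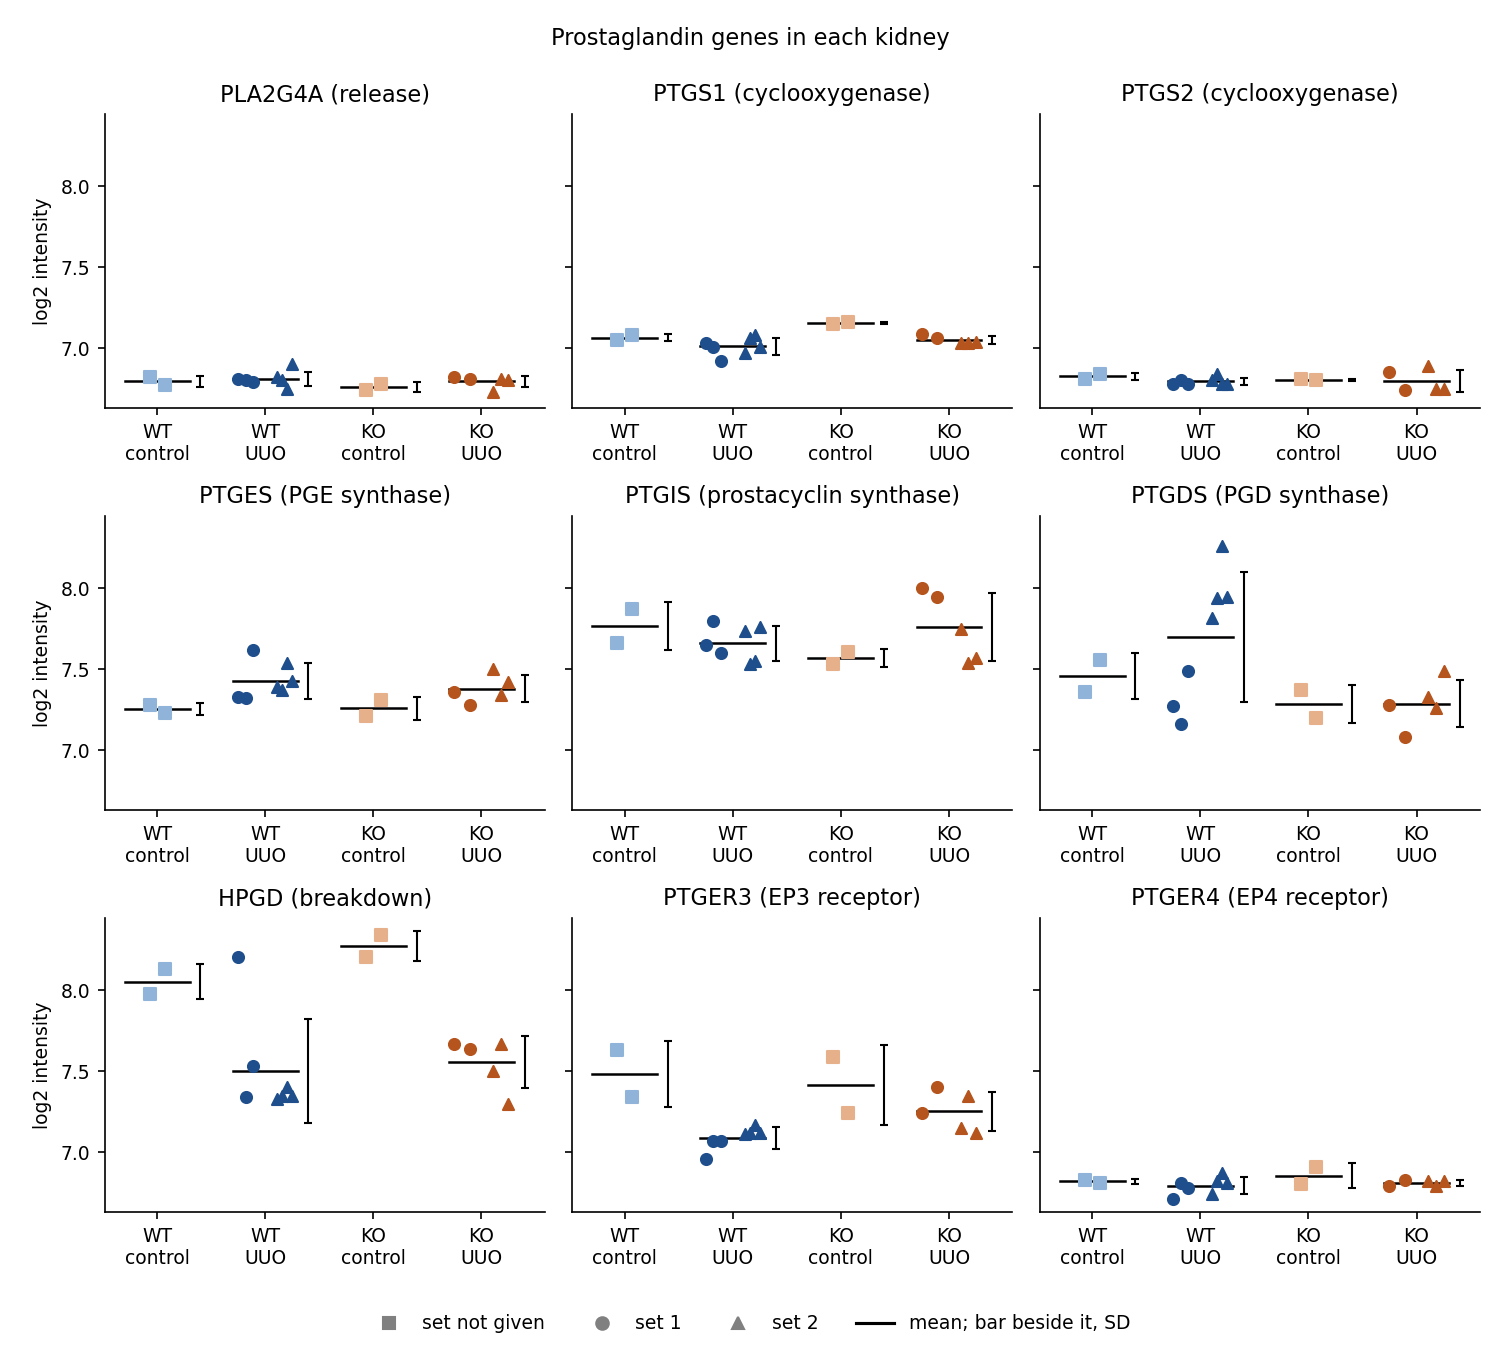
Log2 intensity (vertical axis, the same in every panel) of the 9 measured members in each of 16 kidneys, by group; squares are controls, circles UUO kidneys of set 1, triangles those of set 2, lines the group means and the bars beside them the SD. HPGD lies at 7.98 to 8.34 in the 4 controls and at 7.30 to 7.67 in all UUO kidneys but 1, WT UUO kidney 3818 at 8.21, and PTGDS is highest in the 4 WT UUO kidneys of set 2, at 7.82 to 8.26.

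HPGD, the dehydrogenase that inactivates prostaglandins, was lower after UUO in all but 1 kidney. It read 7.98 and 8.13 in the WT controls, and the 7 WT UUO kidneys had a lowest value of 7.33, a median of 7.35 and a highest of 8.21. The highest was kidney 3818, above both controls, and the other 6 lay below both, at 7.33 to 7.53. The log2 fold change over all 7 was -0.55 ± 0.18 (SE; 95% interval -0.94 to -0.17), with an adjusted p of 0.0522 that missed the threshold. Without kidney 3818 it was -0.67 ± 0.09 with an adjusted p of 0.00026, and without both 3818 and 3820 it was -0.70 with 2.67e-05. An exact two-sided permutation test over kidneys gave p = 0.0833 with all 7 and p = 0.0357 without 3818, the smallest that 28 splits allow. Kidney 3818 was the only one to overlap the controls, so leaving it out fixed that exact p, which is no separate evidence. It also held the highest HPGD value of its group, so the limma p-values without it are no separate evidence either. HPGD was not called when any other single WT UUO kidney was left out. With UUO kidneys of set 1 alone the value was -0.36 with a limma adjusted p of 0.509, and with set 2 alone -0.70 with 8.48e-05. It was -0.63 without WT control 3811 and -0.48 without 3812. In the KO kidneys HPGD was called. The controls read 8.21 and 8.34, and the 5 UUO kidneys 7.67, 7.64, 7.50, 7.67 and 7.30, so the groups did not overlap. The fold change was -0.72 ± 0.19 (95% interval -1.12 to -0.31; a fall to 0.609 of the control intensity, adjusted p = 0.0122; exact permutation p = 0.0476, the smallest that 21 splits allow). The call rested on both KO controls, since the adjusted p was 0.0623 without 3813 and 0.115 without 3814, while the log2 fold change stayed between -0.78 and -0.65. Background adds to both groups, so these folds are compressed. Background was also taken off as the lowest intensity of the table, with an offset of 16 added. The fall of HPGD was then -0.91 in WT and -1.09 in KO kidneys.

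In whole tissue, fewer cells of a type and less RNA per cell cannot be told apart. Some markers of tubule segments were lower as well, but not all followed HPGD kidney by kidney. Of 6 proximal tubule markers 0 were called in WT kidneys and 5 as lower in KO kidneys. Their summed intensity was 35069 to 36043 in WT controls and 14171 to 35545 in WT UUO kidneys, and 35766 to 36084 in KO controls and 9706 to 19011 in KO UUO kidneys. Of 8 collecting duct markers, 3 were called as lower in each genotype. Over all genes 8.22% were called as lower in WT and 11.2% in KO kidneys. The summed collecting duct intensity of WT UUO kidney 3818, in which HPGD was not low, was 4213, near the WT controls at 4334 and 4849 and above the other WT UUO kidneys at 2224 to 3825. Kidney 3820 had the highest of those, 3825, with HPGD at 7.53. Between kidneys 3818 and 3820 the order in the other segments was the opposite. Kidney 3820, with low HPGD, had a proximal tubule sum of 35545, within the range of the WT controls, and a thick limb sum of 21406. Kidney 3818 had lower sums, 28371 and 16269. These were still above the remaining WT UUO kidneys, at 14171 to 26542 and 8929 to 14995. The part of these cell types in the fall of HPGD was not tested.

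Among the receptors PTGER3 fell in WT kidneys. EP3 couples to the inhibitory G protein that lowers cyclic AMP. The WT controls read 7.63 and 7.34, and the 7 WT UUO kidneys had a lowest value of 6.96, a median of 7.11 and a highest of 7.17, all below both controls. These UUO values lay close to those of IL33 in kidneys that lack it, 6.80 to 7.02, so background compresses the fold of PTGER3 too. The log2 fold change was -0.40 ± 0.09 (95% interval -0.60 to -0.20, adjusted p = 0.0104; exact permutation p = 0.0278, the smallest that 36 splits allow). WT control 3811 carried much of that difference, since without it the value was -0.25 with an adjusted p of 0.246. Without WT UUO kidneys 3818 and 3820 it was -0.37 with 0.0131. Over all alternatives it ran from -0.82 to -0.25. In the KO kidneys the controls read 7.59 and 7.24 and the UUO kidneys 7.24, 7.40, 7.15, 7.35 and 7.12, with overlap. PTGER3 there had a fold change of -0.17 ± 0.10 (95% interval -0.38 to 0.05, adjusted p = 0.297) and was not called. The direction in KO kidneys rested on the controls, with a value of 0.01 without KO control 3813 and of -0.34 without 3814. The difference between the genotypes in this response was 0.23 ± 0.14 (95% interval -0.06 to 0.52), not called, so a response in WT alone is not shown.

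Some markers of the segments known to carry EP3 were lower in both genotypes. Over all genes 8.22% were called as lower in WT and 11.2% in KO kidneys. Of 5 thick limb markers 3 were called as lower in WT and 3 in KO kidneys, and UMOD (-0.57 and -0.37) and CLDN16 (0.02 and -0.14) were not called. The called ones included SLC12A1, the salt transporter that furosemide blocks, at -3.12 and -3.13. Their summed intensity was 22124 to 25229 in WT controls, 8929 to 21406 in WT UUO kidneys, 19900 to 23933 in KO controls and 11171 to 14433 in KO UUO kidneys. Of 8 collecting duct markers the 3 called as lower in each genotype were AQP3 and SLC26A4 along with AQP2, the water channel of the collecting duct, at -1.08 in WT and -1.42 in KO kidneys. By kidney these sums did not all follow PTGER3. Kidney 3818 had the lowest PTGER3, 6.96, with the highest collecting duct sum of the WT UUO kidneys, 4213, and kidney 3820 had PTGER3 at 7.07 with a thick limb sum of 21406. The part of these cells in the fall of PTGER3 was not tested.

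PTGER4, the receptor EP4 that raises cyclic AMP, had fold changes of -0.03 (95% interval -0.12 to 0.06) in WT and -0.05 (-0.14 to 0.04) in KO kidneys. Its 16 values lay between 6.71 and 6.91. That is the region in which IL33 read in kidneys that lack it, so a change of PTGER4 would be hard to see on these arrays.

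The enzymes that start synthesis were flat on the array. PLA2G4A lay between 6.73 and 6.90 in all 16 kidneys, with fold changes of 0.02 (95% interval -0.07 to 0.10) in WT and 0.04 (-0.05 to 0.12) in KO kidneys. PTGS2, the inducible cyclooxygenase, lay between 6.74 and 6.89, with fold changes of -0.03 (-0.12 to 0.05) and -0.01 (-0.10 to 0.08). Both stayed close to background, and neither an induction nor its absence can be read from values at that level. PTGS1, the constitutive cyclooxygenase, was 7.05 and 7.08 in WT controls and had a lowest value of 6.92, a median of 7.01 and a highest of 7.08 after UUO, with overlap. In KO kidneys it was 7.15 and 7.16 in the controls and 7.09, 7.06, 7.03, 7.03 and 7.04 after UUO, without overlap. That difference was small, -0.10 ± 0.04 (95% interval -0.19 to -0.01), and its adjusted p of 0.0973 missed the threshold (exact permutation p = 0.0476, the smallest possible). The values of PTGS1 lay close to those of IL33 in kidneys that lack it, 6.80 to 7.02, so background compresses its fold too.

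PTGES, the microsomal prostaglandin E synthase, read slightly higher after UUO. The WT controls were 7.28 and 7.23, and the WT UUO kidneys had a lowest value of 7.32, a median of 7.39 and a highest of 7.62, all above both controls. The fold change was 0.18 ± 0.07 (95% interval 0.02 to 0.33) with an adjusted p of 0.143, and the exact permutation p was 0.0556, so it was not called. In KO kidneys the controls were 7.21 and 7.31 and the UUO kidneys 7.36, 7.28, 7.50, 7.34 and 7.42, with overlap and a fold change of 0.12 ± 0.08 (-0.04 to 0.29). PTGIS, prostacyclin synthase, had values of opposite sign in the genotypes, -0.11 ± 0.11 in WT and 0.19 ± 0.12 in KO kidneys, of which neither was called. The difference between these responses was 0.30 ± 0.16 (95% interval -0.05 to 0.65, adjusted p = 0.973). The KO UUO kidneys of set 1 read 8.0 and 7.95 for PTGIS and those of set 2 7.75, 7.54 and 7.57, against KO controls of 7.53 and 7.61. With UUO kidneys of set 1 alone PTGIS was called in KO kidneys (0.41, adjusted p = 0.0301, beside 12.5% of all genes), and with those of set 2 alone its value was 0.05.

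**Figure D2:**
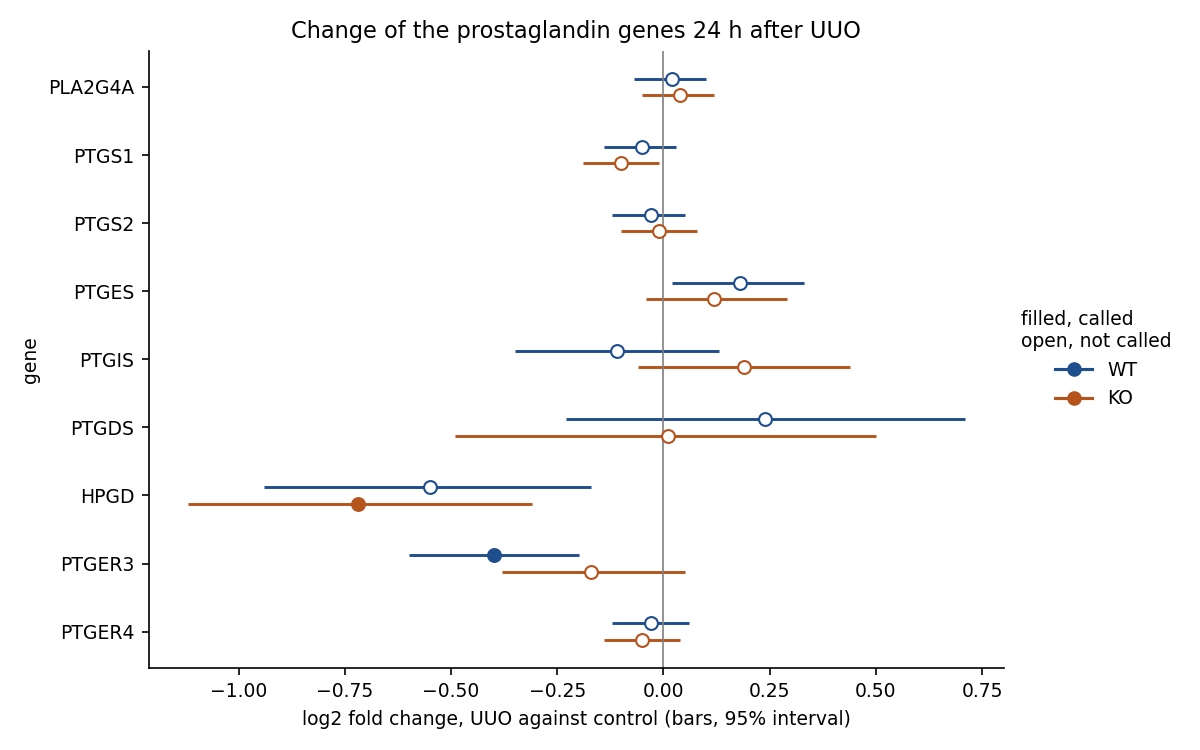
Log2 fold change of UUO against control (horizontal axis) for each of the 9 measured members, in WT kidneys (blue, 7 against 2) and KO kidneys (orange, 5 against 2), with 95% intervals as bars and filled points for called genes. HPGD lies lowest, at -0.55 in WT and -0.72 in KO, and the filled points are PTGER3 in WT and HPGD in KO.

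PTGDS, the lipocalin-type prostaglandin D synthase, stood apart in the WT UUO kidneys of set 2. The WT controls read 7.36 and 7.56. The WT UUO kidneys of set 1 read 7.27, 7.16 and 7.49 and those of set 2 7.82, 7.94, 8.26 and 7.95, so every kidney of set 2 was above every kidney of set 1 and above both controls. In WT UUO kidneys 9.08% of all genes had sets that did not overlap. Among the members PTGER3 had such sets as well, at 6.96 to 7.07 in set 1 and 7.11 to 7.17 in set 2 (exact permutation p = 0.0286). In KO UUO kidneys the sets of PTGDS overlapped, at 7.08 to 7.28 in set 1 and 7.26 to 7.49 in set 2. Set 2 minus set 1 was 0.69 ± 0.11 for PTGDS, with an adjusted p of 0.0661 over all genes (exact permutation p = 0.0286, the smallest that 35 splits allow). The comparison of the sets was added after the data were seen, so its p-values do not stand for a planned test. Over both sets the WT response to UUO was 0.24 ± 0.22 (95% interval -0.23 to 0.71) and was not called. With UUO kidneys of set 2 alone it was 0.53 with an adjusted p of 0.00371, where 23.4% of all genes were called, and with those of set 1 alone -0.15 with 0.623, where 1.04% were. KO kidneys were low throughout, with controls at 7.37 and 7.20, set 1 at 7.28 and 7.08 and set 2 at 7.33, 7.26 and 7.49. The KO response was 0.01 ± 0.23 (-0.49 to 0.50).

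The genotypes were then compared after UUO, 5 KO against 7 WT kidneys, which asks what the loss of IL-33 does in the obstructed kidney. The study's threshold was used, which asks for a fold change above 1.3 with p under 0.05 before adjustment and under 0.25 after it. The paper applied it with fewer WT kidneys and counted probes, and it listed many more as passing. The counts here are therefore not those of the paper. None of the 9 members passed it (0 of 9; 2 had an unadjusted limma p under 0.05), beside 2 of 18132 genes, or 0.0110%. No member had groups that did not overlap, beside 0.756% of all genes. PTGDS came nearest in size, at -0.41 ± 0.17 in KO against WT (95% interval -0.78 to -0.04, adjusted p = 0.439, exact permutation p = 0.0593). PTGER3 was 0.16 ± 0.05 higher in KO (95% interval 0.05 to 0.28, adjusted p = 0.330, exact permutation p = 0.0101), a fold of 1.12. Of HPGD the difference was 0.06 ± 0.14 (95% interval -0.25 to 0.36), and of PTGS2 it was 0.00 (-0.07 to 0.07). The intervals of all 9 members lay within -0.78 to 0.36. Without WT UUO kidneys 3818 and 3820 the values were -0.54 for PTGDS, 0.13 for PTGER3 and 0.21 for HPGD, with adjusted p of 0.291, 0.421 and 0.306.

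Within the sets the values of PTGDS parted. In set 1 KO minus WT was -0.12 (95% interval -0.43 to 0.18, exact permutation p = 0.5 over 10 splits), and in set 2 it was -0.63 ± 0.10 (-0.85 to -0.41, adjusted p = 0.117), which passed the study's threshold. There the 3 KO kidneys, at most 7.49, lay below the 4 WT kidneys, at least 7.82 (exact permutation p = 0.0286, the smallest that 35 splits allow). In set 2 alone 0.447% of all genes passed that threshold and 8.82% had groups that did not overlap. The difference between the sets in the genotype effect, also fitted after the data were seen, was -0.51 ± 0.17 for PTGDS. Its adjusted p was 0.716, so it was not called. Leaving out WT UUO kidney 3819, the lowest of the 7 at 7.16, also brought PTGDS past the study's threshold (-0.50, adjusted p = 0.192), but without it 309 of all genes passed in place of 2. PTGER3 was higher in KO by 0.29 in set 1 and by 0.08 in set 2, and PTGIS by 0.29 in set 1 and by -0.02 in set 2, and neither was called in a set.

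**Figure D3:**
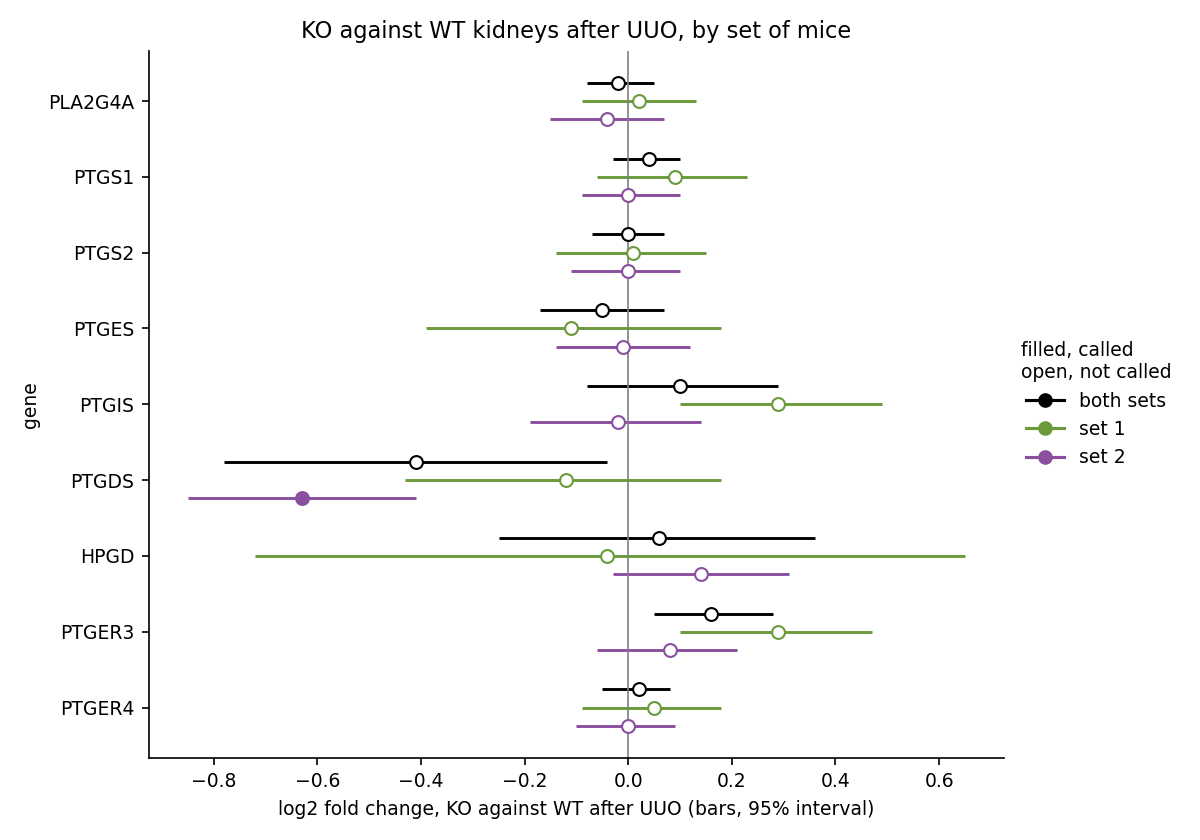
Log2 fold change of KO against WT kidneys after UUO (horizontal axis) for the 9 measured members, over both sets (black, 5 against 7 kidneys), set 1 (green, 2 against 3) and set 2 (purple, 3 against 4), with 95% intervals as bars. PTGDS in set 2, at -0.63, is the single filled point, which marks a gene past the study's threshold.

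The response to UUO did not differ between the genotypes past the threshold for any member (0 of 9, all adjusted p at 0.973 or above, none with an unadjusted limma p under 0.05), beside 0 of 18132 genes, or 0%. At an unadjusted p under 0.05 there were 860 genes. The interval of HPGD was -0.72 to 0.40 and that of PTGDS -0.91 to 0.44, wide enough to hold differences as large as the responses themselves. Between the control kidneys, 2 KO against 2 WT, 0 of 9 members and 0 of all genes (0%) were called by limma, and 0 members and 664 genes had an unadjusted p under 0.05. With 6 splits an exact permutation test cannot go below 0.333 there. The member differences of the controls ran from -0.20 (PTGIS) to 0.22 (HPGD).

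Beyond the 9 members, 34 other genes of prostanoid release, synthesis, breakdown, transport and reception were measured. In WT kidneys 4 were called as higher and 2 as lower, and in KO kidneys 4 as higher and 6 as lower, with medians of 0.02 and -0.01. These shares too stand beside the 15.2% and 21.8% of all genes. AKR1B8, CBR1, SLCO2A1 and PLA2G12A were higher in both genotypes. AKR1B8, an aldo-keto reductase, had controls of 6.92 and 7.18 in WT and 7.17 and 7.21 in KO kidneys. After UUO it ran from 7.67 to 9.14 in WT and from 8.70 to 9.26 in KO kidneys, with fold changes of 1.55 ± 0.27 and 1.85 ± 0.28 (adjusted p = 0.0016 and 0.000272). CBR1, a carbonyl reductase that can act on prostaglandin E2, rose by 1.15 ± 0.24 and 0.90 ± 0.26 (0.0055 and 0.0193). SLCO2A1, the transporter that takes prostaglandins into cells for breakdown, rose by 0.70 ± 0.12 and 0.74 ± 0.13 (0.00167 and 0.000699). PLA2G12A, a secreted phospholipase A2, rose by 0.29 ± 0.08 and 0.24 ± 0.08 (0.0230 and 0.0468), and its call in KO kidneys was lost under 11 of 16 alternatives.

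TBXA2R, the thromboxane receptor, fell in both genotypes. It read 7.47 and 7.49 in WT controls and 7.06 to 7.21 after UUO, and 7.26 and 7.31 in KO controls and 7.04 to 7.16 after UUO, with no overlap in either. Its fold changes were -0.34 ± 0.04 and -0.19 ± 0.05 (adjusted p = 0.000271 and 0.00746). FAAH, which breaks down the endocannabinoid anandamide and so frees arachidonic acid, had values of -0.67 ± 0.15 and -0.89 ± 0.16 (0.00867 and 0.000915). In KO kidneys 4 more were called as lower. They were the aldo-keto reductase AKR1C18 at -1.23 ± 0.33, MGLL, the monoacylglycerol lipase, at -0.70 ± 0.16, TBXAS1, thromboxane synthase, at -0.42 ± 0.14, and the phospholipase PLA2G6 at -0.35 ± 0.08. In WT kidneys their values were -0.41, -0.40, -0.19 and -0.16, and none of the 34 genes was called for a difference between the genotypes in the response. Without WT UUO kidneys 3818 and 3820, MGLL at -0.51 and TBXAS1 at -0.32 were called in WT kidneys as well. Several of these calls rested on single kidneys. CBR1 lost its call when either control of a genotype was left out, as did FAAH and PLA2G12A in WT and AKR1C18 in KO kidneys. PLA2G12A in KO lost it without either control, without 4 of the 5 KO UUO kidneys and under other processing. TBXAS1 lost it without any one of the 7 KO kidneys, MGLL in KO without 3813 and TBXA2R in KO without 3814.

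**Figure D4:**
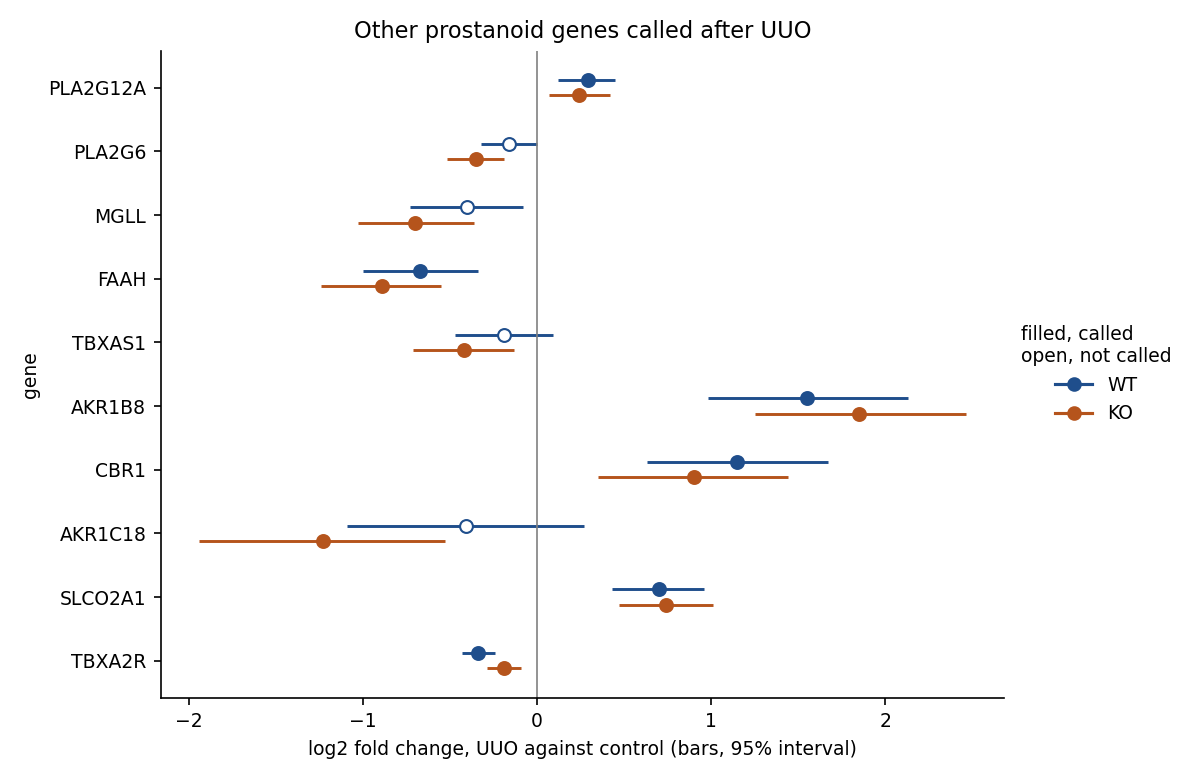
Log2 fold change of UUO against control (horizontal axis) for the 10 other prostanoid genes called in either genotype, in WT (blue, 7 against 2) and KO kidneys (orange, 5 against 2), with 95% intervals as bars and filled points for called genes. AKR1B8, CBR1, SLCO2A1 and PLA2G12A lie above 0 in both genotypes, and FAAH and TBXA2R below 0 in both.

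Of 19 genes of the neighbouring lipoxygenase and leukotriene route, 1 was called as higher and 1 as lower in WT kidneys, and 2 and 3 in KO kidneys. This count, and those of the macrophage and cyclic AMP lists below, stand beside 15.2% of all genes called in WT and 21.8% in KO kidneys. ALOX5AP, which hands arachidonic acid to the lipoxygenase of leukotriene synthesis, had the largest rise in both, at 0.70 ± 0.18 in WT and 1.01 ± 0.19 in KO kidneys. The next largest were LTC4S at 0.19 in WT, not called, and DPEP2 at 0.16 in KO, called. DPEP1, a dipeptidase of the tubule brush border, had the largest fall at -1.50 ± 0.32 and -1.88 ± 0.33, followed by EPHX1 at -0.48 in WT, not called, and EPHX2 at -0.90 in KO, called. Of 9 macrophage markers, 2 were called as higher in WT and 5 in KO kidneys, among them CD68 at 0.62 and 0.96. In each genotype 1 was called as lower, CSF1R, the receptor of the macrophage growth factor CSF1, at -0.41 and -0.36, and the list had medians of 0.04 and 0.25. The part of these cells in the rise of ALOX5AP was not tested. Of 16 genes known to answer to cyclic AMP, the messenger that EP4 raises and EP3 lowers, 1 was called as higher and 1 as lower in each genotype. AREG, a growth factor of the EGF family, rose by 0.95 ± 0.29 in WT and 1.10 ± 0.30 in KO kidneys, and FOS came next at 0.84 and 0.67, not called. PPARGC1A, a coactivator of mitochondrial genes, had values of -1.33 ± 0.23 and -1.43 ± 0.24, both called, and DUSP1 came next at -0.64 and -0.38, not called.

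The genes with the pattern most like that of HPGD over the 16 kidneys were FBXO21, RAB27A and HOXD10, and for PTGER3 they were NRIP3, RBM35A and IRF5. Likeness was the root mean square difference after each gene's mean was taken off. It was 0.122, 0.124 and 0.135 for the genes like HPGD, whose own SD over the kidneys was 0.36, and 0.093, 0.097 and 0.101 for those like PTGER3, with an SD of 0.18. FBXO21 had group means of 9.30 in WT control, 8.79 in WT UUO, 9.42 in KO control and 8.84 in KO UUO kidneys. These genes were sought after it was seen that no member was called in both genotypes.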

How the data were processed

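Total RNA of 16 mouse kidneys was labelled with biotin and hybridized to Illumina MouseRef-8 v2 BeadChips. The authors read the arrays into R through beadarray, and the submitters' processing notes also name BeadStudio 2. The deposited values are linear intensities, 1 per gene symbol, and how background was treated and probes of a gene were joined is not given in the sources used here. At equal rank the arrays differed by 9.11% at most (median 0.706%), so they had been made alike before deposit.

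Here they were quantile-normalized once more, which moved a log2 value by at most 0.109, and taken to log2. No gene was filtered. The comparisons used limma 3.58.1 (lmFit, eBayes; R 4.3.3), and p-values were adjusted by Benjamini-Hochberg over all 18132 genes. One model of the 4 groups over 16 arrays gave the responses to UUO, their difference and the comparison of controls, called at an adjusted p under 0.05. KO against WT after UUO used the 12 UUO arrays and the study's threshold. Exact two-sided permutation tests, for single genes, counted the splits of kidneys whose means lay at least as far apart. The labels do not say which kidneys share a cage or litter, and precision is limited by the number of arrays. The methods were tested on simulated data with known changes.

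The members and gene lists were chosen with earlier results of these data known. All members, the other prostanoid genes called after UUO in either genotype, and the 2 largest changes in each direction of the leukotriene and cyclic AMP lists were named. Alternatives were no second normalization, median centring, array weights, a prior variance with a trend, brighter genes alone, background taken off (with an offset of 16 added), each set alone, the set as a block, all 16 arrays in one model, and leaving out arrays. Python 3.11.15 with numpy 2.4.6, scipy 1.17.1, pandas 2.3.3 and matplotlib 3.10.9 gave summaries and plots. Promoter windows came from RefSeq.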

Additional observations from a re-analysis of the deposited data

Results flagged for a closer look

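Among 19 genes in 2 UUO groups, 38 in all, 4 held a kidney whose gap to the nearest other was large for the range of its group, where chance gives about 1 in 20. WT UUO kidney 3818 read 8.21 for HPGD with the next highest at 7.53 and the lowest at 7.33. WT UUO kidney 3893 read 6.84 for PTGS2, with the others at 6.78 to 6.80. KO UUO kidney 3897 read 6.73 for PLA2G4A, with the others at 6.80 to 6.82. KO UUO kidney 3899 read 7.26 for TBXAS1, with the others at 7.36 to 7.38. The gaps of PTGS2 and PLA2G4A are at the level of background.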

How the results depend on the processing

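Leaving out single kidneys and the choice of set moved the calls. In WT kidneys after UUO, 2 members (HPGD and PTGER3) in place of 1 were called with no second normalization, array weights or a trended prior variance. The same 2 were called with brighter genes alone, with background taken off or without both 3818 and 3820. Brighter genes alone left out PLA2G4A, PTGS1, PTGS2 and PTGER4, and 33% of the 9066 genes kept were called. Of all genes, 15.3% were called with no second normalization, 14.2% with the trend and 14% with background taken off. With UUO kidneys of set 1 alone 0 members were called, and with those of set 2 alone 3 members, PTGDS among them. The share of all genes called moved too, from 15.2% to 1.04% with set 1, 23.4% with set 2, 22.2% with array weights, 22.7% without 3818 and 3820 and 5.8% without WT control 3811. Leaving out single kidneys gave 0 (without WT control 3811) to 2 in WT, 0 (without either KO control) to 1 in KO, and 0 to 1 for KO against WT after UUO, where set 2 alone also gave 1. In KO kidneys set 1 alone called PTGIS in place of HPGD, with 12.5% of all genes in place of 21.8%, and 12.6% and 14.2% were called without control 3813 and 3814. For KO against WT after UUO the single kidney was WT 3819, without which 1.7% of all genes passed, and set 2 alone gave 0.447%. With the set as a block 0 members passed in KO against WT after UUO. In that comparison exact Mann-Whitney tests gave unadjusted p of 0.0303 for PTGER3 and 0.149 for PTGDS. The cause was not tested beyond the left-out kidneys.

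No reversed value was called. Over all kidneys the reversed values of PTGDS were 0.24 in WT and -0.24 for the difference of the responses, and those of PTGER3 -0.17 in KO and -0.07 in the controls. With set 1 alone PTGDS was -0.15 in WT, -0.10 in KO and 0.05 for the difference of the responses, where PTGER4 was 0.01 and PTGS1 1.8e-05. PLA2G4A was -0.0028 there with set 2. PTGDS in KO was -0.0015 with no second normalization. In KO against WT after UUO, PTGS2 was -0.0013 with array weights, -0.01 with background taken off, -0.0034 without 3818 and 3820 and -0.0017 in set 2. PTGER4 was -0.0001 without 3818 and 3820 and -0.0015 in set 2, PTGIS -0.02 in set 2, and in set 1 HPGD was -0.04 and PLA2G4A 0.02. Leaving out single kidneys gave -0.01 to 0.04 for PLA2G4A in WT. In KO it gave -0.03 to 0.01 for PTGS2, -0.08 to 0.09 for PTGDS, -0.34 to 0.01 for PTGER3 and -0.10 to 0.01 for PTGER4. For the difference of the responses it gave -0.0030 to 0.05 for PLA2G4A and -0.08 to 0.04 for PTGER4, and for KO against WT after UUO -0.03 to 0.0008 for PLA2G4A and -0.02 to 0.02 for PTGS2. For the controls it gave -0.05 to 0.06 for PTGES, -0.24 to 0.11 for PTGER3 and -0.02 to 0.10 for PTGER4.

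No paired analysis was possible because each array carries a number of its own. With 2 controls a group, a control left out leaves 1, assumed to vary like the other groups. PLA2G4A, PTGS2 and PTGER4 lay near background, and PTGS1, at 6.92 to 7.16, lay close to it.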
